A study of Homo sapiens with 12 samples.

Results

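The comparison described here set all 9 libraries of cells given a microRNA mimic together against the 3 libraries of cells given a scrambled RNA, and asked which transcripts stood on the same side of the control whichever mimic was used. It drew on 12 of the 12 libraries of the series. All came from the immortalised line HMEC-1, endothelial cells of small vessels of human skin, grown in EBM-2 medium with the supplements of the EGM-2 kit. Cells received 50 nM of a synthetic double-stranded RNA that stands for miR-126, for miR-143 or for miR-150, called a mimic, or 50 nM of non-targeting scrambled RNA, carried by the lipid reagent Lipofectamine RNAiMAX, and RNA was collected 48 h later. The 4 groups held 3 libraries each, with the replicate numbers 2, 3 and 4. The labels do not give the arm of each microRNA, the sequence of the scrambled RNA or whether each library is a culture of its own. The p-values therefore describe the spread among these libraries, which may be technical. No library of untransfected cells was analysed here. A rise shared by the mimics and a fall brought by the scrambled RNA therefore cannot be told apart from these values.

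A microRNA guides an Argonaute protein to messenger RNAs, mainly through pairing of its seed, the bases near its 5′ end, with sites in the 3′ UTR, and the messenger RNA is then lowered. A small double-stranded RNA made as a negative control enters the same proteins, so its own seed can lower transcripts as well, which is called a seed-dependent off-target effect. Double-stranded RNA is also sensed by cell receptors that switch on interferon and the genes it stimulates. Dermal endothelial cells in culture make and remodel matrix, and they mount an interferon response.

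The mature sequences that RefSeq (GRCh38.p14) lists for both arms of miR-126 and miR-143 are shown so that their seeds can be set beside the sequence that the shared genes carried; the third mimic was miR-150. Capitals mark the seed, bases 2 to 8.
hsa-miR-126-3p: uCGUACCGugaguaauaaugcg
hsa-miR-126-5p: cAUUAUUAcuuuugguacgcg
hsa-miR-143-3p: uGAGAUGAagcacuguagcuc
hsa-miR-143-5p: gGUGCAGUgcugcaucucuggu
For miR-126-3p, the 37 genes with a 7-base site in the 3′ UTR averaged 0.25 lower on the log2 scale than genes without one in the miR-126 comparison, against 0.082 lower with miR-143 and 0.098 lower with miR-150. For miR-143-3p, the 1800 genes with its site averaged 0.19 lower in the miR-143 comparison, against 0.0064 and 0.084 lower with miR-126 and miR-150. For the 5p arms the differences were 0.040 lower with miR-126 against 0.093 and 0.13 lower with miR-143 and miR-150 (miR-126-5p, 2482 genes), and 0.079 lower with miR-143 against 0.0069 and 0.074 lower with miR-126 and miR-150 (miR-143-5p, 2267 genes). These means, given as a description, are set against the same control libraries.

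The transcripts that stood highest with every mimic carried another sequence in common. Of all 16360 7-base sequences found in the 3′ UTRs of at least 30 tested genes, GGTTGTG went with the highest fold changes in the pooled comparison. It would pair with bases 2 to 8 of a small RNA whose seed reads CACAACC, and followed by an A it makes the 8-base site GGTTGTGA. None of the 2370 mature human microRNAs in the RefSeq table has that seed (0 of 2370). The table lists no mature miR-150, so the seed of that mimic was not searched. This 7-mer had already been singled out in an earlier scan of these libraries, so every value on it is a description. The windows below are the 30 bases around the site in the genes that led the comparison, from GENCODE 29 transcripts on GRCh38, 5′ to 3′ on the strand of the gene. Capitals mark the 7-mer, with the A that follows it where there is one.
MNAT1 (chr14:60968612-60968641, + strand, 3′ UTR in exon 8): ctatatgtgtttgaGGTTGTGAcagactta
SNU13 (chr22:41674873-41674902, - strand, 3′ UTR in exon 3): agcttcccccctgaGGTTGTGtatcatatt
CHST14 (chr15:40473008-40473037, + strand, 3′ UTR in exon 1): cacaaggcctttgaGGTTGTGActgtggct
NARS2 (chr11:78436507-78436536, - strand, 3′ UTR in exon 14): gaaaaaatataagtGGTTGTGAttttctta
UGCG (chr9:111934847-111934876, + strand, 3′ UTR in exon 9): gtgaaaaccagtctGGTTGTGAcccactac
TPD52L2 (chr20:63890673-63890702, + strand, 3′ UTR in exon 9): gagggttccttaatGGTTGTGAgcattgtg
UHMK1 (chr1:162528944-162528973, + strand, 3′ UTR in exon 7): cagctggagtagttGGTTGTGAatattaaa
NSF (chr17:46756454-46756483, + strand, 3′ UTR in exon 21): atgactaccgtgttGGTTGTGActtcccct
CANX (chr5:179728862-179728891, + strand, 3′ UTR in exon 15): acatttaacataatGGTTGTGAaatgtaac
C3orf52 (chr3:112117641-112117670, + strand, 3′ UTR in exon 6): atcctgttacagatGGTTGTGAtacaagaa
S1PR1 (chr1:101240652-101240681, + strand, 3′ UTR in exon 2): gttatcagagctggGGTTGTGgaatgatcg
UGCG and TPD52L2 hold 2 copies of the 7-mer each.

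Values are TPM, transcript abundances corrected for length and scaled to one fixed sum per library, added up over the transcripts of a gene symbol. TPM do not keep read numbers, so depth is unknown and precision rests on the spread between libraries. Between 12299 and 13564 genes reached 1 TPM in a library, and Pearson r across genes was 0.952 to 0.990 within groups. In 2 libraries long transcripts were low: deviation from the mean and transcript length gave a Spearman rho across genes of -0.40 in replicate 4 of the miR-143 mimic and of -0.55 in replicate 4 of the miR-150 mimic, against -0.01 to 0.29 in the other 10. Ribosomal protein transcripts made up 24.1% of TPM in miR-150 mimic replicate 4, against 13.5% to 17.9% elsewhere. All 12 endothelial markers looked for, PECAM1, CDH5, KDR and VWF among them, had a median of at least 1 TPM. Of 16 fibroblast and pericyte markers 6 were under 1 TPM in every library (PDGFRA, DCN and LUM among them) and 8 had a median of at least 1 TPM, with COL1A2 at 20.3 TPM and RGS5 at 10.5 TPM. Of 12 epithelial markers 6 were under 1 TPM throughout (CDH1, KRT5 and TP63 among them) and 4 had such a median, with KRT18 at 648 TPM and KRT8 at 34.4 TPM. Of 14 leukocyte markers 10 were under 1 TPM throughout (CD3E, CD3D and SPI1 among them) and 2 had such a median, CD68 at 44.0 TPM and CD14 at 2.12 TPM. Of 6 lymphatic endothelial markers 2 were under 1 TPM throughout (CCL21 and RELN) and 4 had such a median, with PDPN at 70.3 TPM and LYVE1 at 10.5 TPM. In whole-culture RNA, fewer cells of a kind and less RNA per cell cannot be told apart.

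Of 13750 genes that reached 1 TPM in 3 or more libraries, 573 (4.17%) passed the threshold: 344 were higher (2.50%) and 229 lower (1.67%) in the mean of the 3 mimics than with scrambled RNA, at an adjusted p under 0.05 in limma's two-sided moderated test with Benjamini-Hochberg adjustment. Whatever the test, all 9 mimic libraries lay above all 3 controls for 437 genes (3.18%) and under them for 439 (3.19%), together 876 (6.37%). This held for 271 of the genes that were higher (1.97% of those tested), and in the lower direction for 165 (1.20%), in all 436 genes (3.17%). Each mimic on its own passed the threshold for 86 genes in the higher direction (0.625%) and 26 in the lower (0.189%), in 3 comparisons that share their control libraries. Most changes were small: 50 of the higher and 42 of the lower genes reached 1 on the log2 scale, which is 2-fold, and the median over all tested genes was -0.019. Among the 436 genes on one side in every mimic library, 47 also differed between mimics by an F-test across the 3 mimic groups. Of all 13750 tested genes 693 did so. The counts rested on the controls: without scrambled RNA replicate 4 they were 76 higher and 35 lower, without replicate 2 they were 100 and 44, and without replicate 3 they were 209 and 111. Of the calls 60.03% were in the higher direction, and 47.85% (378 higher, 412 lower) when each library was centred on its median gene.

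MNAT1, which assembles the CDK-activating kinase of the transcription factor TFIIH, showed the largest rise common to the mimics. It measured 20.7, 18.3 and 19.8 TPM in the controls (replicates 2, 3 and 4) and between 77.9 and 94.6 TPM, median 84.0, in the 9 mimic libraries. The groups were far apart, at log2 fold changes of 2.07 (miR-126), 2.16 (miR-143) and 1.97 (miR-150), and the pooled change was 2.07 (SE 0.080, adjusted p = 2.66e-07). NDUFB5, a subunit of mitochondrial complex I, measured 46.6, 58.4 and 42.9 TPM in the controls and 126 to 174 TPM, median 156, with mimics (log2 1.64, SE 0.12, adjusted p = 5.49e-05). Its 3′ UTR was the one among the 12 leading genes without the 7-mer, and none of its 3 protein-coding transcripts at 1 TPM or more carried it in the 3′ UTR.

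**Figure D1:**
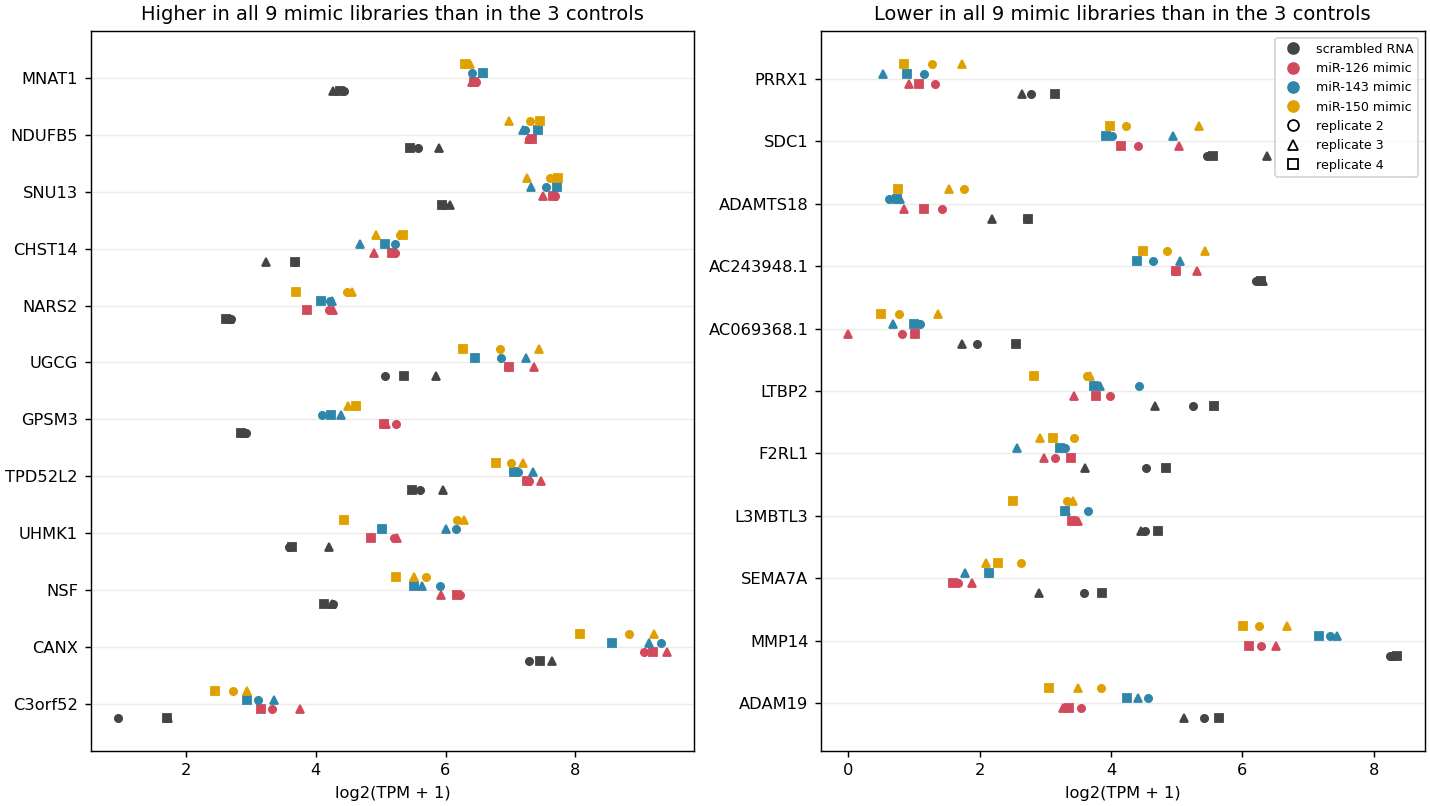
Levels of the 12 genes highest and 11 of the 12 lowest in every mimic, chosen by the smallest of the 3 single-mimic fold changes. Each point is a library at its log2(TPM + 1), with colour for the group and shape for the replicate number; all 9 mimic points of a gene lie on one side of its 3 control points, as the choice requires, and MNAT1 shows the widest gap among the higher genes.

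Genes of RNA handling and of the secretory pathway stood among the other leading rises. SNU13, a protein of the spliceosome and of small nucleolar particles, measured 61.0, 66.0 and 60.6 TPM in the controls and 151 to 213 TPM, median 194, with mimics (log2 1.57, adjusted p = 5.49e-05). NARS2, the mitochondrial asparaginyl-tRNA synthetase, went from 5.46, 5.42 and 5.16 TPM to between 11.9 and 22.6 TPM, median 17.6 (log2 1.52, adjusted p = 0.000833). Both were higher in each of the 9 mimic libraries, as the choice of the leading genes requires. NSF, the ATPase that takes apart SNARE complexes after membrane fusion, measured 18.2, 18.0 and 16.6 TPM in the controls and 36.7 to 73.8 TPM, median 50.9, with mimics (log2 1.55, SE 0.12, adjusted p = 0.000107). CANX, the lectin chaperone calnexin of the endoplasmic reticulum, measured 155, 197 and 174 TPM against 269 to 678 TPM, median 560.3 (log2 1.52, adjusted p = 0.00284). For MNAT1, NARS2, NSF, UGCG, TPD52L2, UHMK1, CANX and C3orf52 the lowest mimic value came from miR-150 mimic replicate 4, a library that stood apart by transcript length.

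Enzymes of glycan and lipid synthesis followed. CHST14, which adds sulfate to dermatan chains, measured 11.9, 8.43 and 11.8 TPM in the controls and 24.8 to 39.6 TPM, median 35.2, with mimics (log2 1.56, adjusted p = 0.000353). UGCG, the glucosylceramide synthase, measured 32.6, 57.1 and 40.2 TPM against 76.4 to 173 TPM, median 124 (log2 1.50, adjusted p = 0.00632). Replicate 3 was the highest library of UGCG in every group.

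The remaining leaders were TPD52L2, UHMK1, C3orf52 and GPSM3. TPD52L2, of the tumour protein D52 family, measured 47.9, 61.3 and 43.5 TPM against 109 to 177 TPM, median 146 (log2 1.49, adjusted p = 0.000124). UHMK1, a kinase of splicing factors, measured 11.1, 17.4 and 11.5 TPM against 20.6 to 77.3 TPM, median 37.3 (log2 1.68, SE 0.37, adjusted p = 0.0273). UHMK1 varied most among the leaders and stayed past the threshold in 8 of 12 fits that each left out 1 library. C3orf52 was at 0.938, 2.30 and 2.27 TPM in the controls and at 4.43 to 12.6 TPM, median 7.66, with mimics (log2 1.62 on the log2(TPM + 1) scale, adjusted p = 0.00149). GPSM3, a modulator of G protein signalling, measured 6.59, 6.41 and 6.21 TPM against 16.2 to 36.9 TPM, median 23.5 (log2 1.76, adjusted p = 1.76e-05), and its rise differed between mimics (2.24 with miR-126, 1.36 with miR-143, 1.69 with miR-150). GPSM3 overlaps NOTCH4 on chromosome 6, and its symbol covers 7 Ensembl genes, so its level is uncertain; SNU13, CANX and C3orf52 overlap C22orf46, CBY3 and GCSAM.

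The 7-mer was found in the 3′ UTR of 11 of these 12 genes, 9 of them with the full 8-base site, and in 37 of the 50 genes highest by the same rule. Of the 270 genes with a 3′ UTR that were higher in every mimic, 94 carried it (34.8%), against 1280 of all 12476 tested genes with a 3′ UTR (10.3%) and 11 of 160 genes lower in every mimic (6.88%). The 12 named lower genes held no copy in the 10 that had a 3′ UTR. Shorter matches occurred there: PRRX1 holds bases 2 to 7 of the pairing followed by an A, and ADAM19 those 6 bases alone. A second gene without it among the 25 highest was MRPS24, a mitochondrial ribosomal protein, which has 1 copy in its coding sequence. Carrying the 7-mer did not settle the direction: PDPN, podoplanin, carries it and was lower with every mimic. The median 3′ UTR was 964 bases in genes higher in every mimic, 1432 in those lower and 1348 in all.

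The longest match went with the highest fold changes. The median pooled log2 fold change was 0.17 for the 332 genes with the 8-base site, 0.039 for the 948 with the 7-mer alone, -0.051 for the 906 with bases 2 to 7 of the pairing followed by an A, -0.081 for the 1863 with those 6 bases alone and -0.017 for the 8427 with none. The share called higher ran in the same order for the first 3 classes, at 14.2%, 7.49% and 3.20%, and was 1.77% and 1.92% in the last 2. Each mimic on its own gave a higher median for the 8-base site than for no site: 0.31 against 0.086 with miR-126, 0.15 against -0.034 with miR-143 and 0.052 against -0.10 with miR-150, against shared controls. Genes with exactly 1 copy had a median of 0.061 (1137 genes), and genes with exactly 2 copies 0.18 (126 genes). The reverse complement of the 7-mer, in 449 genes with no site, went with a median of -0.048.

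**Figure D2:**
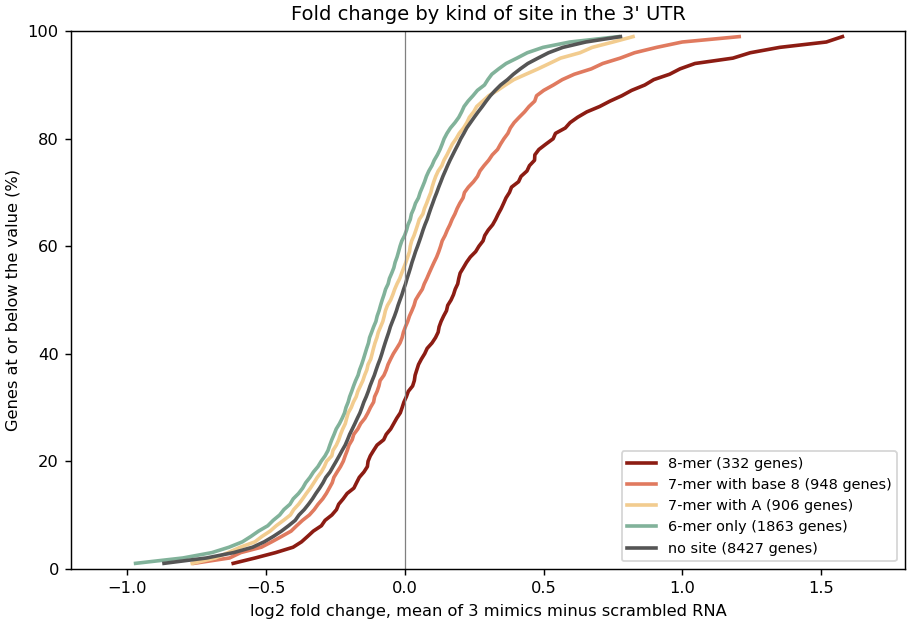
Pooled log2 fold change (x axis) against the share of genes at or below it in percent (y axis), one line per kind of site in the 3′ UTR, drawn from the 1st to the 99th percentile. The line of the 332 genes with the 8-base site lies farthest to the right over its whole length, the 948 genes with the 7-mer alone come next, and the 1863 genes with the 6 bases alone lie left of genes without a site throughout.

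UTR length, position of the site and context went with the size of the difference. With a single 8-base site, the median was 0.47 in 3′ UTRs under 1000 bases (31 genes, 35.5% of them called higher), 0.21 between 1000 and 3000 bases (103 genes) and 0.0043 from 3000 bases on (133 genes). Genes without a site also fell with UTR length, at 0.045, -0.076 and -0.16, and the 8-base classes stood above them at each length. Sites within 300 bases of either end of the UTR went with a median of 0.38 (81 genes), and sites farther inside with 0.064 (186 genes). In a short UTR every site is near an end, and UTR length was not held equal between these classes. Position and UTR length therefore cannot be told apart here. A T just before a single copy of the 7-mer went with 0.13 and a G with -0.01, and a following A with 0.15 against -0.0021 for a following G. Where the 3′ UTR held no site, copies in the coding sequence went with 0.050 (532 genes) and copies in the 5′ UTR with -0.031 (123 genes), and a gene may be in both groups.

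Library by library, genes with the 7-mer averaged below genes without it in each control, by 0.149, 0.087 and 0.097 on the log2 scale in replicates 2, 3 and 4, each gene taken as its deviation from its mean over the 12 libraries. Such deviations cancel out over the 12 libraries, and the 7-mer was picked by the contrast of mimics with controls. The sign in a group is therefore relative to the other groups. They averaged above in 7 of the mimic libraries, by 0.030 to 0.095. The other 2 were miR-143 mimic replicate 4 at -0.069 and miR-150 mimic replicate 4 at -0.111, the libraries that stood apart by transcript length. The first lay above all 3 controls, and the second within their range. With a linear trend on UTR length, UTR A and T content and transcript length removed from each library, the 9 mimic libraries lay between 0.039 and 0.066 and the 3 controls between -0.160 and -0.136. The difference between mimics and controls was 0.15 as deposited and 0.20 with the trend removed. By replicate number, mimics exceeded the control of that number by 0.24, 0.14 and 0.061 for replicates 2, 3 and 4. Among the 16360 7-mers this one ranked 1, 1 and 25 for those numbers, and 1, 2 and 1 against the shared controls for miR-126, miR-143 and miR-150. With the trend removed it ranked 1 for each number, and 1, 2 and 1 for the mimics.

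**Figure D3:**
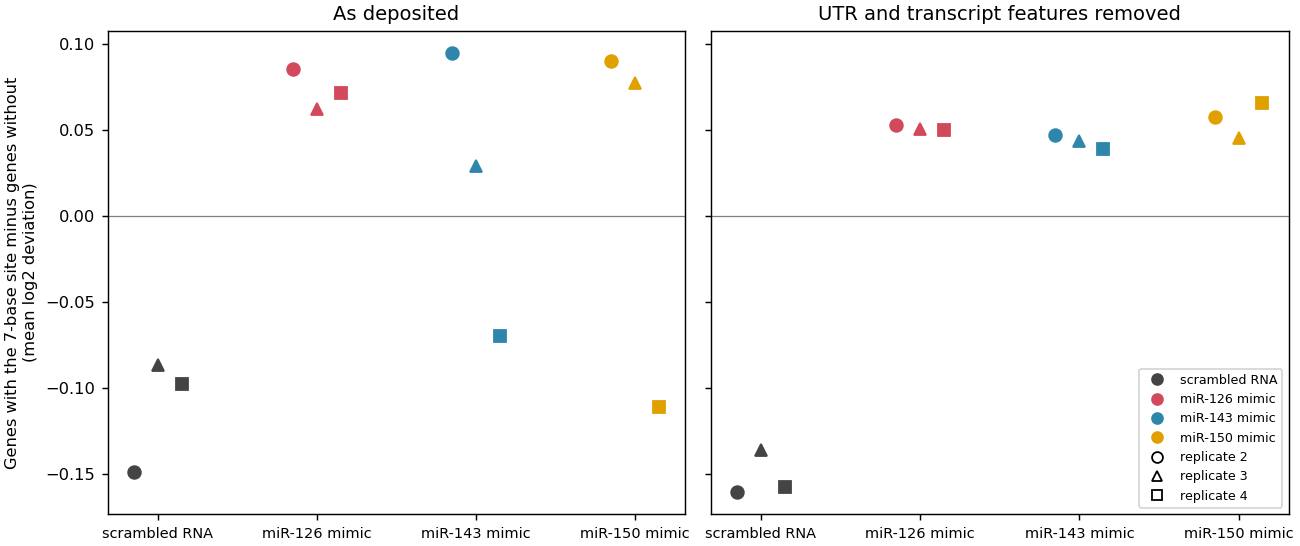
Mean log2 deviation of genes with the 7-base site minus that of genes without it (y axis), one point per library, by group, as deposited (left) and with trends on UTR length, UTR base content and transcript length removed (right). On the right the 3 controls lie at -0.160 to -0.136 and all 9 mimic libraries at 0.039 to 0.066; on the left the 2 square points under 0 are miR-143 and miR-150 mimic replicate 4.

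Isoforms of the same gene gave a further description, since cells can make transcripts of a gene with and without the site. In 421 genes both kinds were measured at a mean of at least 2 TPM, and the median log2 fold change was 0.028 for transcripts with the 7-mer and -0.068 for those without, higher with the site in 64.6% of genes. The median difference within a gene was 0.12. In the 109 of these genes with the 8-base site it was no larger, at 0.078, and 63.3% were higher with the site. In EWSR1, an RNA-binding protein, transcripts with the site changed by 2.23 and those without by 0.46. In SNU13 the values were 1.52 with and 1.66 without, and in TPD52L2 1.50 and 1.64. The software divides reads among transcripts that share most exons, so single isoform values are uncertain.

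Of the 12 genes named for falling in every mimic, MMP14 and ADAM19 code for metalloproteases at the cell surface. MMP14 (GRCh38 chr14:22836557-22849027), the membrane-anchored matrix metalloproteinase, measured 304, 311 and 327 TPM in the controls and 63.2 to 173 TPM, median 90.3, with mimics (log2 -1.66, SE 0.13, adjusted p = 0.000107). ADAM19, a membrane-bound metalloprotease, measured 41.5, 33.5 and 48.9 TPM against 7.34 to 22.7 TPM, median 10.7 (log2 -1.63, adjusted p = 0.000437). MMP14 and ADAM19 each fell by 2.00 with miR-126, by 0.98 with miR-143 and by 1.99 and 1.92 with miR-150, a difference between mimics past the threshold (adjusted p = 0.00656 and 0.0248). ADAM19 overlaps CYFIP2 and NIPAL4 in the annotation, which makes its value less certain.

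PRRX1, a homeobox transcription factor of mesenchymal cells, had the largest fall common to all mimics. It measured 5.91, 5.22 and 7.89 TPM in the controls and 0.440 to 2.31 TPM, median 1.10, with mimics (log2 -1.78, SE 0.21, adjusted p = 0.00103). LTBP2, a microfibril protein of the latent TGF-beta binding family, measured 37.0, 24.4 and 46.3 TPM against 6.08 to 20.5 TPM, median 12.4 (log2 -1.46, adjusted p = 0.00795). Both lay under the controls in every mimic library, as the choice of the genes requires, and for LTBP2 the lowest value came from miR-150 mimic replicate 4. ADAMTS18, a secreted metalloprotease, measured 5.55, 3.53 and 5.68 TPM against 0.531 to 2.38 TPM, median 0.791 (log2 -1.48, adjusted p = 0.00482). SDC1, the heparan sulfate proteoglycan syndecan-1, measured 42.9, 81.8 and 45.9 TPM against 14.1 to 39.4 TPM, median 17.8 (log2 -1.35, adjusted p = 0.0448). SDC1 was highest in replicate 3 of every group, and it passed in 4 of 12 fits that each left out 1 library.

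A surface receptor, a semaphorin and a chromatin reader were also among the 12. F2RL1, the protease-activated receptor PAR2, measured 22.1, 11.1 and 27.6 TPM in the controls and 4.93 to 9.78 TPM, median 7.84, with mimics (log2 -1.20, adjusted p = 0.0231). SEMA7A, a semaphorin held at the membrane by a lipid anchor, measured 11.1, 6.46 and 13.5 TPM against 2.03 to 5.18 TPM, median 3.29 (log2 -1.43, adjusted p = 0.00336). For both, the control nearest to the mimics was replicate 3. L3MBTL3, a reader of methylated lysine, measured 22.0, 21.0 and 25.2 TPM against 4.70 to 11.5 TPM, median 9.62 (log2 -1.25, adjusted p = 0.00369). AC243948.1 measured 72.5, 78.5 and 77.3 TPM against 20.1 to 42.0 TPM, median 30.5 (log2 -1.36, adjusted p = 0.00234). AC069368.1, which overlaps ANKDD1A and PLEKHO2 and is therefore uncertain, measured 2.89, 2.30 and 4.88 TPM against at most 1.57 TPM and was listed at 0 in miR-126 mimic replicate 3 (log2 -1.28, adjusted p = 0.0228).

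Across a list of 45 tested genes of the extracellular matrix and its proteases, 13 fell and 0 rose, against 1.67% and 2.50% of all genes, and the median log2 fold change was -0.47 against -0.019 for all genes. Beside MMP14 and ADAM19, the falls included PLOD2 and PLOD1, which hydroxylate collagen lysines, COLGALT1, which adds galactose to them, the collagen COL5A1, the matrix proteins FN1, THBS1 and TGFBI, and the proteases PLAU, PLAT and ADAM9. PLOD2 measured 286, 294 and 339.9 TPM in the controls and 60.2 to 235 TPM, median 104, with mimics (log2 -1.43, SE 0.18, adjusted p = 0.00116), and its fall was smaller with miR-143 (-0.74) than with miR-126 (-1.76) or miR-150 (-1.78), a difference between mimics past the threshold (adjusted p = 0.0226). TGFBI fell from 517 ± 14.9 TPM (SD, n = 3) by 0.86 on the log2 scale, to 287 TPM over the 9 mimic libraries (SD 50.7). COL4A1, the basement membrane collagen, at -0.34 (adjusted p = 0.214) and MMP1, the interstitial collagenase, at -0.27 (adjusted p = 0.564) did not pass. The mean log2 level over the list was 6.29 to 6.95 in the mimic libraries and 6.96 to 7.32 in the controls, so each mimic library lay under every control. The count of falls was 6 without scrambled RNA replicate 4, 7 without scrambled RNA replicate 2 and 8 without miR-126 mimic replicate 4. Calls over all genes, in either direction, were 111, 144 and 352 in those fits, against 573 with every library.

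Summed markers of fibroblasts and pericytes, several of them matrix genes, were 46.3 to 86.7 TPM with mimics and 59.9 to 152 TPM in the controls. Of these 16 markers 8 were tested, 0 passed in limma, and PDGFRA, DES, DCN, LUM, DPT and POSTN were under 1 TPM in every library; their part in the matrix result was not tested. Among 27 integrin and focal adhesion genes, ILK, the integrin-linked kinase, and RHOA, the small GTPase of stress fibres, were lower and 0 were higher, against 1.67% and 2.50% of all genes. ILK measured 223, 220.5 and 207 TPM in the controls and 83.5 to 259 TPM, median 199, with mimics, and its pooled fall (log2 -0.45, adjusted p = 0.00815) came with -1.32 for miR-126, 0.10 for miR-143 and -0.13 for miR-150, so it was not common to the mimics. RHOA measured 1221, 1044 and 1256 TPM against 766 to 1036 TPM, median 917 (log2 -0.36, adjusted p = 0.0348), and passed in 5 of 12 fits that left out 1 library. ILK overlaps TAF10 and RHOA overlaps TCTA.

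In the list of 29 TGF-beta and mesenchymal genes, LTBP2 and SNAI1 were lower and LTBP1 was higher, against 1.67% and 2.50% of all genes. LTBP1, which holds latent TGF-beta in the matrix and carries the 7-mer, measured 34.7, 29.6 and 33.1 TPM in the controls and 40.6 to 81.9 TPM, median 59.2, with mimics (log2 0.85, adjusted p = 0.0091). SNAI1, a repressor of epithelial genes, overlapped between groups, with -1.03 for miR-126, -0.04 for miR-143 and -0.63 for miR-150, and passed in 3 of 12 fits that left out 1 library. The ligand TGFB2 at -0.59 (adjusted p = 0.103) and SMAD3, a transducer of the pathway, at -0.54 (adjusted p = 0.409) did not pass.

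All 46 interferon-stimulated genes were above 0 in the pooled comparison, with a median of 0.93. In the fit without the replicate number as a block, 1 passed the threshold, against 2.50% of all genes. That gene was IFITM2, a membrane protein that hinders viral entry, at 421, 519 and 364 TPM in the controls and 554 to 735 TPM, median 624, with mimics (log2 0.55, adjusted p = 0.025), although it has near-identical relatives and overlaps IFITM1. IFIT1, which binds foreign RNA, shows the spread: 3.59, 41.0 and 3.20 TPM in control replicates 2, 3 and 4, 62.7, 374 and 40.6 TPM with miR-126, 23.2, 207 and 21.7 TPM with miR-143, and 7.79, 82.6 and 5.22 TPM with miR-150. Replicate 3 was the highest library of every group, and its control stood above the replicate 2 and 4 libraries of miR-143 and miR-150 and above miR-126 replicate 4. The pooled log2 fold change of IFIT1 was 2.21 (SE 1.04, adjusted p = 0.294). ISG15, a ubiquitin-like modifier, gave 1.76 (adjusted p = 0.322) and MX1, an antiviral GTPase, 1.99 (adjusted p = 0.449). The list medians were 1.70 with miR-126, 0.94 with miR-143 and 0.19 with miR-150, against shared controls.

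The mean log2 level over the interferon list was 3.63 to 7.48 in the mimic libraries and 3.65 to 5.53 in the controls, which overlap. It was above the control of the same replicate number in 8 of 9 mimic libraries. With no block, the list median was 1.49 and 3 genes passed when scrambled RNA replicate 3 was left out. The median was 0.63 without replicate 4 and 0.73 without replicate 2, each with 0 past the threshold. Calls over all genes, in either direction, were 320, 111 and 144 in those fits, against 573 with every library. In the 19 tested genes that sense double-stranded RNA or carry the signal to interferon, 0 passed in either direction and the median was 0.14. The sensor IFIH1 (MDA5) stood at 1.46 (adjusted p = 0.274) and EIF2AK2, the RNA-activated kinase PKR, at 0.09 (adjusted p = 0.959).

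**Figure D4:**
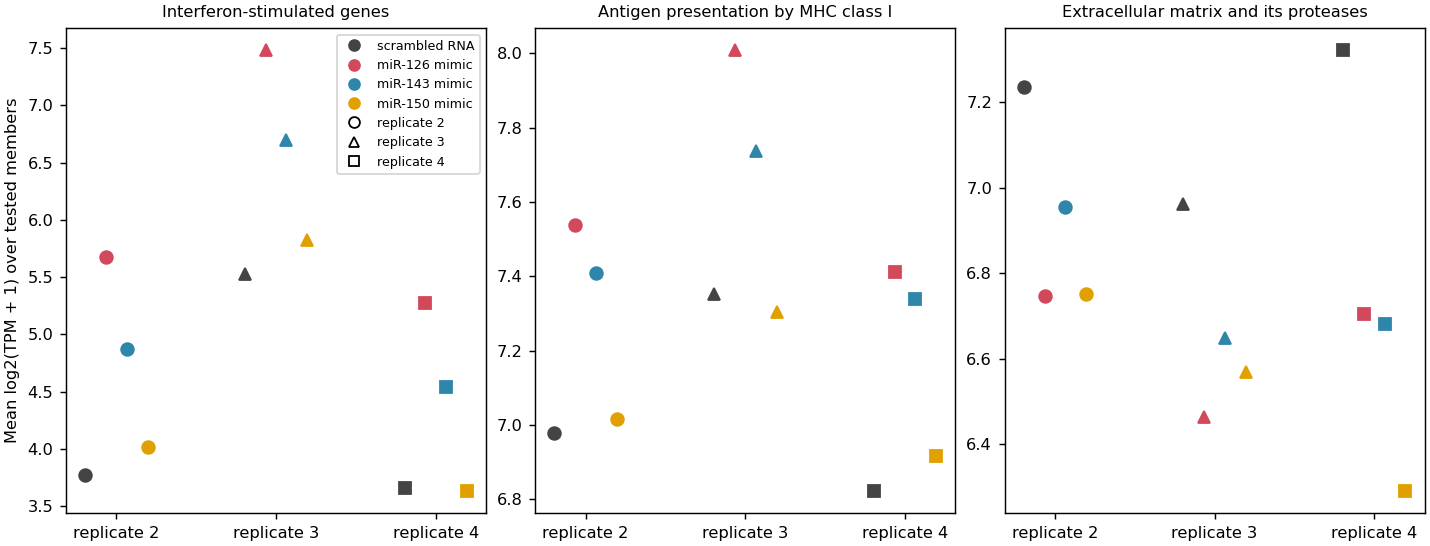
Mean log2(TPM + 1) over the tested members of 3 gene lists (y axis), one point per library, arranged by replicate number with colour for the group. In the interferon panel replicate 3 is highest in each group and mimics overlap the controls (3.63 to 7.48 against 3.65 to 5.53); in the matrix panel every mimic library lies under every control (at most 6.95 against at least 6.96).

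In MHC class I antigen presentation, 3 of 20 tested genes were higher, B2M and HLA-E among them, and 1, CALR, was lower, against 2.50% and 1.67% of all genes tested. B2M, the invariant light chain of class I molecules, carries the 7-mer and measured 2013, 3126 and 1886 TPM in the controls and 3214 to 6585 TPM, median 4664, with mimics (log2 1.02, SE 0.19, adjusted p = 0.0127). HLA-E, a class I heavy chain seen by natural killer cells, measured 268, 239 and 257 TPM against 275 to 379 TPM, median 349 (log2 0.40, adjusted p = 0.0157). HLA-E has near relatives and several alleles, so its value is uncertain. The 3 higher calls became 0 without scrambled RNA replicate 4 and 1 without replicate 2. Over all genes, calls in either direction fell from 573 to 111 and 144 in those fits. The mean log2 level of this list was highest in miR-126 mimic replicate 3 (8.01) and miR-143 mimic replicate 3 (7.74), as was that of the interferon list (7.48 and 6.70), whose part in these values was not tested.

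Among 19 chemokine, adhesion and NF-kappa-B genes, CXCL5 and NFKBIA were higher and 0 were lower, against 2.50% and 1.67% of all genes. CXCL5, a chemokine for neutrophils with the 8-base site, measured 0.465, 0.420 and 0.332 TPM in the controls and 0.681 to 3.71 TPM, median 1.88, with mimics (adjusted p = 0.016), with log2 fold changes of 0.92, 1.60 and 0.48 for miR-126, miR-143 and miR-150. It was under 1 TPM in all 3 controls and entered the test only through the mimic libraries, so its call is no support for the list. The 2 calls became 0 without scrambled RNA replicate 2 or replicate 4. NFKBIA, the inhibitor of NF-kappa-B, measured 54.1, 61.5 and 53.4 TPM against 56.8 to 104 TPM, median 72.4 (log2 0.44, adjusted p = 0.0454), with overlap between groups, and passed in 2 of 12 fits that left out 1 library. CXCL8, another neutrophil chemokine, at 1.08 (adjusted p = 0.134) and ICAM1, a leukocyte adhesion molecule, at 0.46 (adjusted p = 0.542) did not pass.

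The endothelial identity list held 1 call, higher, among 28 genes, against 2.50% of all genes. S1PR1, the receptor for sphingosine-1-phosphate that steadies endothelial junctions, measured 45.8, 56.0 and 49.1 TPM in the controls and 77.2 to 170.4 TPM, median 129.7, with mimics (log2 1.33, SE 0.14, adjusted p = 0.000437). Its 3′ UTR carries the 7-mer in the window shown above. KDR, the main VEGF receptor, at -0.06 (adjusted p = 0.951), VWF, the platelet-binding factor, at 0.12 (adjusted p = 0.898) and PECAM1, a junction adhesion molecule, at -0.49 (adjusted p = 0.453) did not pass. Of 25 VEGF, angiopoietin and apelin genes, APLN and ESM1 were higher and 0 were lower, against 2.50% and 1.67% of all genes. APLN, the ligand apelin, measured 96.2, 127 and 121 TPM against 169.7 to 309 TPM, median 201 (log2 0.91, adjusted p = 0.000657), and ESM1, a proteoglycan of sprouting tip cells, 25.5, 35.1 and 25.7 TPM against 46.1 to 70.6 TPM, median 51.1 (log2 0.89, adjusted p = 0.00326). Both ligand and proteoglycan were above all controls in all 9 mimic libraries, and neither carries the 7-mer. Shorter matches were present: ESM1 holds bases 2 to 7 of the pairing followed by an A, and APLN those 6 bases alone. Of 4 tested lymphatic markers 1, PDPN, was lower and 0 were higher, against 1.67% and 2.50% of all genes, and their median log2 fold change was -0.19. PDPN fell from 132, 124 and 130.5 TPM to between 53.1 and 94.6 TPM, median 64.2 (log2 -0.93, adjusted p = 0.000353).

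Protein folding genes went both ways. Of 24 tested, CANX was higher and EIF2AK3, XBP1, HSP90B1 and CALR were lower, against 2.50% and 1.67% of all genes. EIF2AK3, the stress sensor PERK, measured 26.2, 27.4 and 29.1 TPM in the controls and 7.23 to 21.1 TPM, median 15.8, with mimics (log2 -1.04, adjusted p = 0.041). XBP1, a transcription factor of the unfolded protein response, changed by -0.74, -0.13 and -0.19 with miR-126, miR-143 and miR-150, and HSP90B1, the chaperone GRP94, by -0.27, 0.10 and -0.70, and each differed between mimics (adjusted p = 0.00947 and 0.000914). CALR, the chaperone calreticulin, measured 1501, 1438 and 1457 TPM against 1086 to 1394 TPM, median 1189 (log2 -0.26, adjusted p = 0.041). Each of these 4 falls passed in only 2 or 3 of 12 fits that left out 1 library.

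Other lists held few calls, to be read against the same 2.50% higher and 1.67% lower of all genes. In the 26 S phase, 28 G2 and M phase and 22 cholesterol synthesis genes 0 passed in limma, with medians of 0.056, -0.028 and 0.055. In the 24 genes of microRNA processing and silencing 0 passed, with a median of -0.21; AGO2, the slicing Argonaute, stood at -0.50 (adjusted p = 0.448) and DICER1, which cuts precursors, at -0.48 (adjusted p = 0.508). Of 24 p53 targets DDB2, a DNA damage binding protein, was higher (log2 0.41, adjusted p = 0.0482) with overlap between groups, and passed in 3 of 12 fits that left out 1 library. Of 23 immediate early and MAPK feedback genes JUND, a subunit of AP-1 with the 7-mer, was higher, from 41.8, 41.0 and 36.1 TPM to between 50.2 and 95.6 TPM, median 73.9 (log2 0.79, adjusted p = 0.00486). KRT18, a keratin that overlaps KRT8, was higher among 5 tested epithelial markers (log2 0.55, adjusted p = 0.0218), at 0.07 with miR-126, 0.67 with miR-143 and 0.90 with miR-150. The 13 messenger RNAs encoded by mitochondrial DNA held 0 calls at a median of -0.27, and the 2 tested leukocyte markers 0 calls.

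**Figure D5:**
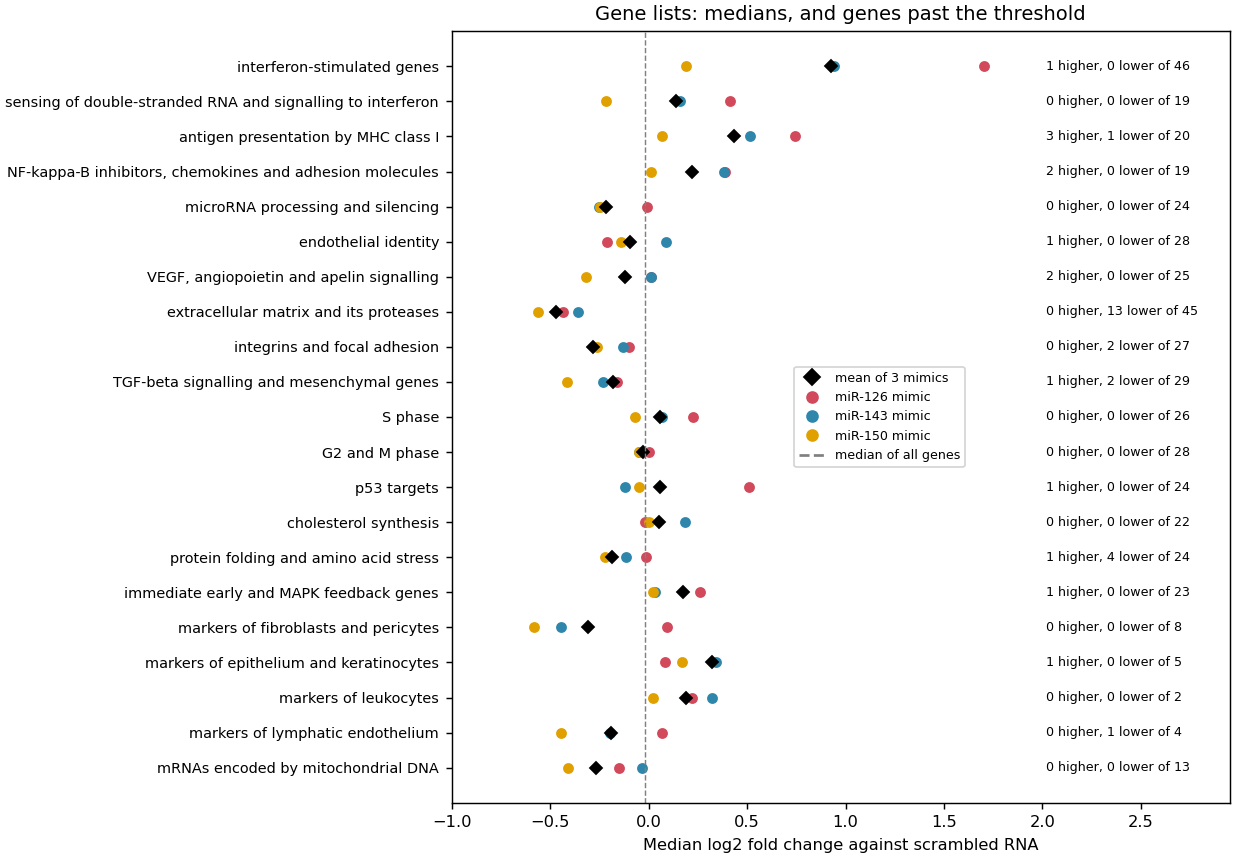
Median log2 fold change against scrambled RNA (x axis) of the tested genes of each of 21 lists, as the mean of 3 mimics (diamonds) and for each mimic (circles, shared controls), with the number of genes past the threshold at the right. The dashed line is the median of all genes at -0.019; the matrix list lies lowest at -0.47 with 13 genes lower, and the interferon list highest at 0.93 with 1 gene higher.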

How the data were processed

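RNA-seq of 12 HMEC-1 libraries was analysed from a deposited table of TPM for 187626 transcripts, which the authors made with kallisto, per the submitters' processing notes, which also name FastQC, sleuth and GRCh38 (hg38). No source used here gives versions or the transcript annotation. TPM keep no depth, and biases by transcript length stay in them. Columns were matched to samples by name (0 left over), and TPM were summed per symbol (36433 symbols, with 171 transcripts without a gene left out; 677 tested symbols cover more than 1 Ensembl gene).

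The 13750 genes that reached 1 TPM in 3 or more libraries were fitted as log2(TPM + 1) with limma 3.58.1, with a term for each of the 4 groups, which share one estimate of spread. The contrast was the mean of 3 mimics minus control, two-sided, Benjamini-Hochberg adjusted over all genes. Fold changes on this scale understate low genes. The fit was tested on simulated data. For each gene the longest protein-coding 3′ UTR in GENCODE 29 was searched if it had 20 bases or more.

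Named genes are the 12 higher and 12 lower in every mimic with the largest smallest single-mimic change, and up to 4 called genes of each of 21 lists by size of change; other list members were named as background after their values were seen. The members and lists were chosen with earlier results of these data known. The alternatives tried changed the pseudocount, filter, scaling, libraries, model and length trend. Some items are not reported here.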

Additional observations from a re-analysis of the deposited data

Results flagged for a closer look

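Of 48 values examined over the 9 mimic libraries (the 24 leading genes, the means of 21 lists and 3 site measures), 4 had a library set apart from the others by more than the gap allowed at the 95% level, and chance flags about 1 in 20. The library was miR-150 mimic replicate 4 each time, and it was the lowest. L3MBTL3 stood at 2.51 on the log2(TPM + 1) scale there. The mean of the TGF-beta and mesenchymal list was 4.13, that of the 2 leukocyte markers 2.94 and that of the mitochondrially encoded mRNAs 9.60. The same library showed a correlation of -0.55 between deviation and transcript length, whose part in these values was not tested.

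Among the 24 leading genes, 3 differed in size between the mimics by limma's F-test across the mimic groups. That F-test passed for 693 of all 13750 tested genes. The 3 genes kept the same direction in the 9 mimic libraries, as the choice of leading genes requires. GPSM3 (adjusted p = 0.0081) rose most with miR-126. MMP14 (adjusted p = 0.00656) and ADAM19 (adjusted p = 0.0248) fell least with miR-143.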

How the results depend on the processing

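Counts are given as higher, lower, higher in every mimic and lower in every mimic, and were 344, 229, 271 and 165 as reported. The pseudocount of 0.5, no filter and a 5 TPM filter left each within 1.5 times of these. A 2-level fit gave 173, 68, 166 and 67, and removal of a trend on transcript length 708, 679, 504 and 377. Centring on the median gene moved the lower counts to 412 and 274, and quantile normalization to 465 and 290. Without miR-143 and miR-150 mimic replicate 4 the counts were 790, 513, 638 and 327. Without the miR-126 mimic they were 109, 84, 106 and 68, without the miR-150 mimic 641, 389, 586 and 307, and without the miR-143 mimic 204 were higher. Leaving out 1 library gave 76 to 571 higher, 35 to 414 lower, 75 to 434 higher in every mimic and 30 to 264 lower in every mimic. The lowest came without scrambled RNA replicate 4 and the highest without miR-150 mimic replicate 4; scrambled RNA replicates 2 (100, 44, 98, 39) and 3 (209, 111, 200, 101) and miR-126 mimic replicates 2 (216, 123, 190, 96) and 4 (225, 127, 199, 98) also moved counts by over 1.5 times. The cause was not tested.

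Of 46 named genes 0 changed sign under any alternative run on them, 22 were called whichever single library was left out (12 fits), and 9 in fewer than 6 of these fits. SDC1 alone lost its call without the 2 libraries set apart by length (adjusted p = 0.0524). The difference of genes with the 7-mer ranged from 0.129 to 0.202 over its alternatives.

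The replicate number as a block gave 1122, 961, 390 and 344 of 13750 genes. In that fit 39 of the 46 interferon genes were higher, to be read against the 1122 of all genes. Of the 45 matrix genes 22 were lower, to be read against the 961. Every group holds the same numbers, so the block cannot change a fold change, and the difference for the 7-mer stayed at 0.148 for that reason. The labels do not say what the numbers mark. Residuals of same-numbered mimic and control libraries correlated with 0.044 to 0.65, over 0.1 in 6 of 9 pairs, and 5 of 9 mimic libraries correlated best with the control of their own number, a hint from the data and not the design. The mean of the 3 mimics gave 0.16, 0.73 and 0.23 with the control of its number, and for numbers 2 and 4 it correlated more with the other of these controls (0.41 and 0.47). TPM hold no depth, so what depth limits could not be given.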
